A study of Mus musculus with 10 samples.

Results

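MHC class I presentation was followed through 10 genes that make, load and control the class I molecule: H2-K1, H2-D1, B2m, Tap1, Tap2, Tapbp, Psmb8, Psmb9, Psmb10 and Nlrc5. Genes were found by symbol, and a probe set counted only where the platform annotation gave it a single symbol, the one with the highest mean being taken where a gene had several. By this rule 9 of the 10 genes were measured, among 22180 genes in all. H2-D1 was not, because its probe set is shared with H2-Q2. The samples were whole aortas of male mice aged 11 weeks, 5 from ApoE/IL-17 double knockout mice and 5 from ApoE knockout mice, labelled as biological replicates. The double knockout strain background is written C57B/L6 and came from crossing IL-17-/- mice, received on C57BL/6J, into ApoE-/- mice. The ApoE knockout strain is written C57BL/6. By their labels both groups lacked ApoE, and high fat feeding ran for 3 weeks in each, begun when the mice were 8 weeks old. No wild-type aorta was analysed here. The labels do not say whether aortas were pooled. Apoe, labelled as deleted in both groups, had log2 signals of 6.87, 6.92, 6.84, 7.02 and 7.26 in the double knockout aortas, against 6.07, 6.44, 6.32, 6.47 and 6.28 in the ApoE knockout aortas. The groups did not overlap, and the double knockout was higher by 0.67 (SE 0.10, limma adjusted p = 0.0011). No source used here places its probes against the deleted part, so these values do not check the deletion, and they differ between groups that both carry it. For the ApoE knockout samples the protocols speak of ApoE/caspase-1 deficient animals and of no IL-17 animals. No scan date was at hand, and if the groups were run separately, run and genotype cannot be told apart.

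MHC class I molecules carry short peptides from the inside of a cell to its surface, where CD8 T cells read them. Proteasomes cut the peptides, the TAP transporter moves them into the endoplasmic reticulum, and tapasin helps fit them into a heavy chain paired with beta-2 microglobulin. Nearly all nucleated cells do this, endothelium of the vessel wall included, and interferon gamma raises most genes of the pathway and swaps standard proteasome subunits for immunoproteasome subunits.

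The promoters of the heavy chains and of beta-2 microglobulin are shown first, because the class I genes are known to be switched on through a shared set of short elements next to the start. The sequences are from RefSeq (GRCm38.p6), written 5′ to 3′ along the strand given, and capitals mark the letters that matched a motif. Motifs from textbook class I regulation were searched on both strands in windows of 300 bases, 250 before and 50 after the start. They were GGGNNTTCC for a short form of a kappa B site, and GAANNGAAA or GAAANNGAA for the first and second form of an interferon response element. The others were TGACG for the core of the X2 box, CCAAT for the Y box and TTCNNNGAA for a gamma-activated site. Longer forms of a kappa B site were not searched, so a window without a GGGNNTTCC match may still hold such a site. The motifs were chosen after the windows had been looked at.
H2-K1, chr17:34000335-34000460, minus strand: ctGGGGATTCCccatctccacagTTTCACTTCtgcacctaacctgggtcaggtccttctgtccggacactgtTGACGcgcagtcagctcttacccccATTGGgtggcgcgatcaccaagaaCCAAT
H2-D1, chr17:35262921-35263045, plus strand: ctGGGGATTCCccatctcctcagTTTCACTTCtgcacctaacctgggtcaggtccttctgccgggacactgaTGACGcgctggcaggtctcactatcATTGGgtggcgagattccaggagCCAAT
H2-Q4, chr17:35379442-35379566, plus strand: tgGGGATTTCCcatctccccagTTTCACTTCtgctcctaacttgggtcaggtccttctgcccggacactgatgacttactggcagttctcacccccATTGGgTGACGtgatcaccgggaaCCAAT
B2m, chr2:122147546-122147638, plus strand: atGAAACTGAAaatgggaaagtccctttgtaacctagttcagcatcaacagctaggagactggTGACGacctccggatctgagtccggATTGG

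In the H2-K1 and H2-D1 stretches the kappa B, interferon response (first form), X2 and Y box letters follow each other in the same order. The H2-Q4 stretch differs, since its marked TGACG comes after the ATTGG, which is CCAAT on the other strand. It has no TGACG match before the ATTGG, where H2-K1 and H2-D1 have theirs. H2-K1 has a pair of windows, and the one with the most downstream start was used. Over 100 bases lined up on the interferon response letters without gaps, H2-K1 and H2-D1 had 89 identical bases, and H2-Q4, a nonclassical heavy chain, had 86 in common with H2-K1 and 87 with H2-D1. The B2m stretch holds the second form of the interferon response element in place of the first and no match to GGGNNTTCC. Its letters gggaaagtccc, read on the other strand, have a longer spacing between GGG and TTCC, which was not searched. The search thus does not show that B2m lacks a kappa B site. Over all 32851 promoter windows of the table, 5.82% held GGGNNTTCC, 7.52% GAANNGAAA and 8.56% GAAANNGAA. The short motifs were common, with TGACG in 20.8% and CCAAT in 37.4% of windows. A match is a description of the letters and shows no binding.

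Psmb9 and Tap1 are neighbours that point away from each other, and the short stretch between their starts is shown because both were measured here and it lies upstream of each.
Psmb9-Tap1, chr17:34187331-34187555, plus strand: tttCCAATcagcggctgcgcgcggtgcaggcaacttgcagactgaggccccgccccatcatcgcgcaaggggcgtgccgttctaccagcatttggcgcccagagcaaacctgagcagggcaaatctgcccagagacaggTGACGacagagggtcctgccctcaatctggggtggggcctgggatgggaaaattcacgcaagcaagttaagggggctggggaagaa

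This stretch holds a CCAAT match at the Psmb9 end and a TGACG match nearer to Tap1. Of the 10 genes, 8 had a promoter in the table. A match to GGGNNTTCC was found in 2 of them, the first form of the interferon response element in 2 and the second form in 1. TGACG was found in 5, CCAAT in 6 and TTCNNNGAA in 1, Psmb8, where 8.3% of all windows held it.

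Of the 9 measured class I genes, 5 fell in the double knockout aortas relative to the ApoE knockout aortas, 0 rose and 4 did not pass the test. At an unadjusted p under 0.05, 7 were lower and 0 higher. The 5 that fell were H2-K1, B2m, Tapbp, Psmb8 and Psmb10, by limma with Benjamini-Hochberg adjustment over all 22180 genes. Among all genes 30.3% were called, 7.53% lower and 22.8% higher, and among the 13499 genes brighter than the level of genes not expected in aorta, defined further on, 10.9% were called lower. Over the 9 genes the log2 difference, double knockout minus ApoE knockout, ran from -0.66 to -0.04 with a median of -0.42, against a median of 0.10 over all genes. The values are deposited log2 signals, and since a probe set has its own brightness, levels are compared only within a gene. In 3 of the 9 genes, H2-K1, B2m and Psmb8, the highest double knockout aorta still lay under the lowest ApoE knockout aorta, an arrangement seen in 4.8% of all genes. With an array left out in turn, 3 to 7 of the 9 were called lower: 3 without double knockout replicate 3 or 4 or without ApoE knockout replicate 2 or 3, and 7 without double knockout replicate 2. In those runs 5.05% to 8.68% of all genes were called lower. Since whole aortas were measured, fewer cells of a type and less RNA per cell cannot be told apart for any of these genes.

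**Figure D1:**
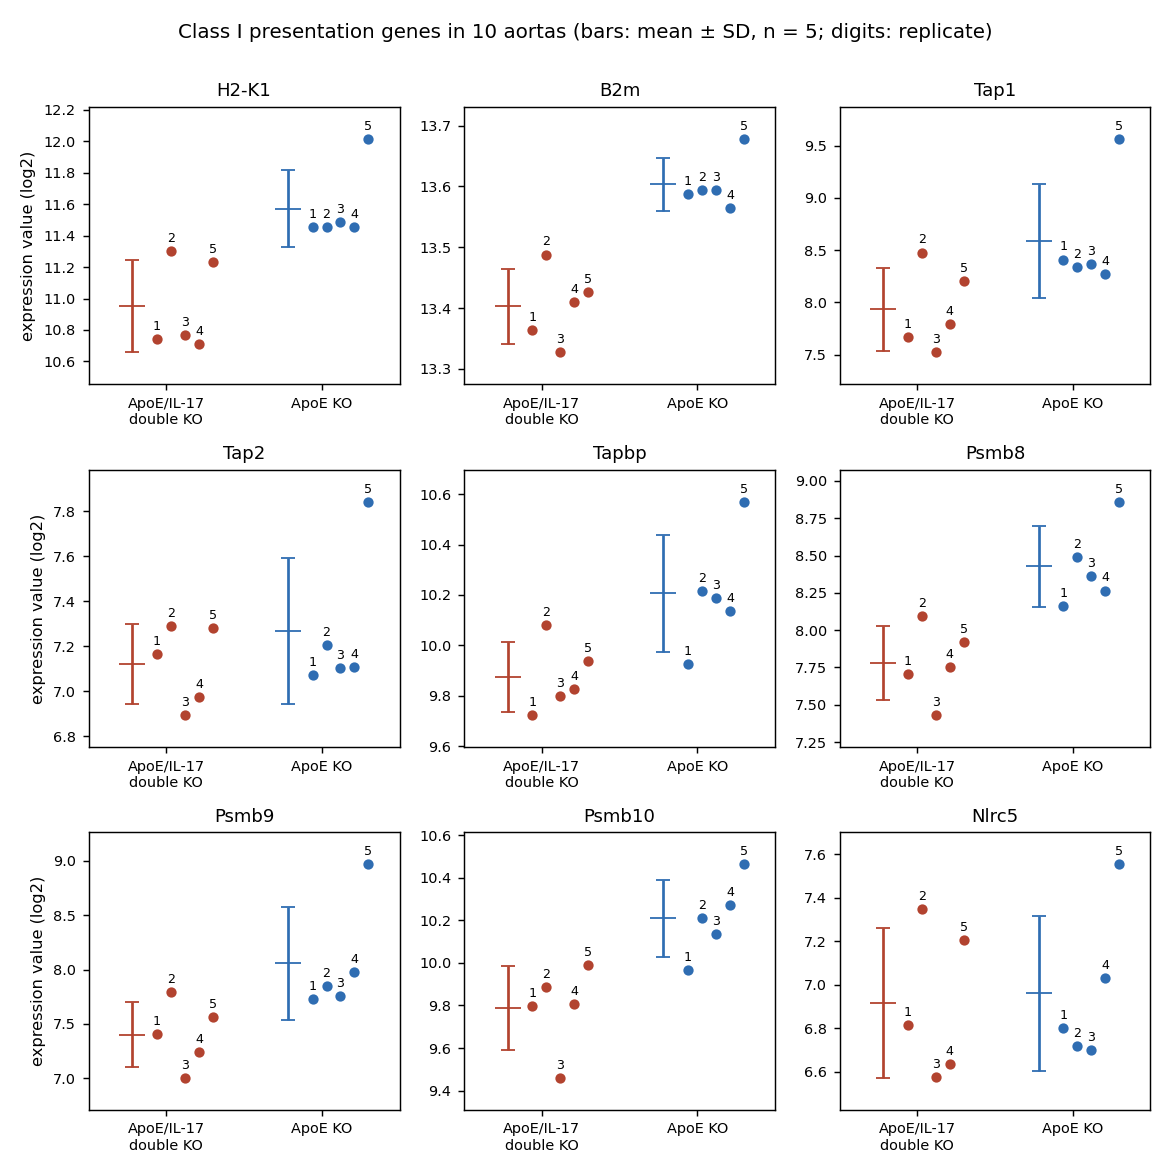
Log2 signal of the 9 measured class I genes in each aorta, double knockout on the left and ApoE knockout on the right of each panel, with digits for replicates and bars for the mean ± SD (n = 5 each). ApoE knockout replicate 5 is the highest point in each of the 9 panels, and the groups do not overlap in H2-K1, B2m and Psmb8.

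H2-K1 encodes the classical heavy chain that holds the peptide. Its log2 signal was 10.74, 11.30, 10.76, 10.71 and 11.23 in the double knockout aortas, against 11.46, 11.46, 11.48, 11.45 and 12.02 in the ApoE knockout aortas. The groups did not overlap, and double knockout replicates 2 and 5 lay closest to the ApoE knockout range. The means were 10.95 ± 0.29 and 11.57 ± 0.25 (SD, n = 5 each), a difference of -0.62 (SE 0.15) or a 1.54-fold lower signal, with a limma adjusted p of 0.012. It passed the threshold with each of the 10 arrays left out in turn. Heavy chain genes are near copies of each other, so part of the signal named H2-K1 may come from related chains.

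B2m encodes beta-2 microglobulin, the light chain without which the heavy chain does not reach the surface. Its log2 signal was 13.36, 13.49, 13.33, 13.41 and 13.43 in the double knockout aortas, against 13.59, 13.59, 13.59, 13.56 and 13.68 in the ApoE knockout aortas. The groups did not overlap, but the gap was narrow. The means were 13.40 ± 0.06 and 13.60 ± 0.04 (SD, n = 5 each), a difference of -0.20 (SE 0.06) or a 1.15-fold lower signal, with a limma adjusted p of 0.027. The highest value on any array lay between 13.78 and 13.88, so B2m sits near the top of the scale, and whether this limits its fold was not tested. Without double knockout replicate 3 or 4, or ApoE knockout replicate 2, 3 or 5, its limma adjusted p lay between 0.050 and 0.062 and missed the threshold.

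Tap1 and Tap2 form the transporter that carries peptides into the endoplasmic reticulum. Tap1 had log2 signals of 7.67, 8.48, 7.52, 7.80 and 8.21 in the double knockout aortas, against 8.41, 8.34, 8.36, 8.27 and 9.56 in the ApoE knockout aortas. Double knockout replicate 2 lay within the ApoE knockout range, and ApoE knockout replicate 5 stood more than 1 log2 unit above the other 4. The means were 7.93 ± 0.40 and 8.59 ± 0.55 (SD, n = 5 each) and the difference was -0.66 (SE 0.26, 95% interval -1.22 to -0.09). This did not pass the threshold (limma adjusted p = 0.074). Without ApoE knockout replicate 5 the difference was -0.41 (adjusted p = 0.10), and without double knockout replicate 2 it was -0.79 and passed (adjusted p = 0.039).

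Tap2 did not pass either. Its log2 signal was 7.17, 7.29, 6.90, 6.98 and 7.28 in the double knockout aortas, against 7.07, 7.21, 7.11, 7.11 and 7.84 in the ApoE knockout aortas. The groups were mixed, apart from ApoE knockout replicate 5, which was highest. The difference was -0.15 (95% interval -0.47 to 0.18, limma adjusted p = 0.47), and without that array it was -0.00.

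Tapbp encodes tapasin, which holds the empty heavy chain at the transporter and helps to select peptides. Its log2 signal was 9.72, 10.08, 9.80, 9.83 and 9.94 in the double knockout aortas, against 9.92, 10.21, 10.19, 10.14 and 10.57 in the ApoE knockout aortas. ApoE knockout replicate 1 fell within the double knockout range and the other 4 were above it. The difference was -0.33 (SE 0.11), a 1.26-fold lower signal with a limma adjusted p of 0.046. This call was lost, at adjusted p between 0.064 and 0.097, with 8 of the 10 arrays left out in turn, and it was kept without double knockout replicate 2 and without ApoE knockout replicate 1. A dimmer second probe set of Tapbp averaged 6.57 in the double knockout aortas and 6.53 in the ApoE knockout aortas, a difference of 0.05 in the other direction.

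Psmb8, Psmb9 and Psmb10 encode the catalytic immunoproteasome subunits, which take the places of Psmb5, Psmb6 and Psmb7 in the standard proteasome. Psmb8 had log2 signals of 7.71, 8.10, 7.43, 7.76 and 7.92 in the double knockout aortas, against 8.16, 8.49, 8.36, 8.27 and 8.86 in the ApoE knockout aortas. The groups did not overlap, with double knockout replicate 2 just under ApoE knockout replicate 1. The means were 7.78 ± 0.25 and 8.43 ± 0.27 (SD, n = 5 each), a 1.56-fold lower signal (SE 0.15 on the log2 scale) with a limma adjusted p of 0.0085. The call was kept with each of the 10 arrays left out.

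Psmb10 had log2 signals of 9.80, 9.89, 9.46, 9.81 and 9.99 in the double knockout aortas, against 9.97, 10.21, 10.14, 10.27 and 10.46 in the ApoE knockout aortas. The groups met at double knockout replicate 5 and ApoE knockout replicate 1. The difference was -0.42 (SE 0.11), a 1.34-fold lower signal with a limma adjusted p of 0.018, kept with each of the 10 arrays left out. Psmb9 had log2 signals of 7.41, 7.79, 7.01, 7.24 and 7.57 in the double knockout aortas, against 7.73, 7.85, 7.76, 7.98 and 8.97 in the ApoE knockout aortas. Double knockout replicate 2 reached into the ApoE knockout range, and ApoE knockout replicate 5 stood far above the other 4. The difference was -0.65 (SE 0.23, 95% interval -1.16 to -0.15) and missed the threshold (limma adjusted p = 0.051). Without ApoE knockout replicate 5 it was smaller, -0.43, and passed (adjusted p = 0.049), as it did without double knockout replicate 2 (-0.75, adjusted p = 0.037) and without ApoE knockout replicate 1 (adjusted p = 0.046).

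The standard partners did not all move the same way. Psmb5, the partner replaced by Psmb8, averaged 11.11 in the double knockout aortas and 11.50 in the ApoE knockout aortas, with no overlap, and fell 1.32-fold (limma adjusted p = 0.0052). Psmb6, the partner of Psmb9, differed by -0.07 (95% interval -0.28 to 0.14, adjusted p = 0.60). Psmb7, the partner of Psmb10, differed by 0.09 (95% interval -0.06 to 0.24, adjusted p = 0.33), and by -0.12 with centring.

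The immunoproteasome subunit was then set against its partner within each array, as a log2 difference whose level has no meaning of its own because the probe sets differ. Psmb10 minus Psmb7 averaged 0.72 ± 0.19 in the double knockout aortas and 1.23 ± 0.24 in the ApoE knockout aortas (SD, n = 5 each). This difference of -0.51 gave a two-sided exact permutation p of 0.0079, the smallest that 5 against 5 allows, and 0.024 adjusted over the 3 pairs. Psmb9 minus Psmb6 averaged -0.70 ± 0.26 and -0.12 ± 0.42 in the same order, a difference of -0.58 (exact permutation p = 0.024, adjusted 0.036). That call was lost without double knockout replicate 1, 2, 3 or 4 or without ApoE knockout replicate 5, at adjusted p between 0.060 and 0.11. Psmb8 minus Psmb5 averaged -3.32 ± 0.21 in the double knockout aortas and -3.07 ± 0.41 in the ApoE knockout aortas, a difference of -0.25 that did not pass (exact permutation p = 0.29) and that was -0.08 without ApoE knockout replicate 5. Psmb8 and Psmb5 both fell.

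**Figure D2:**
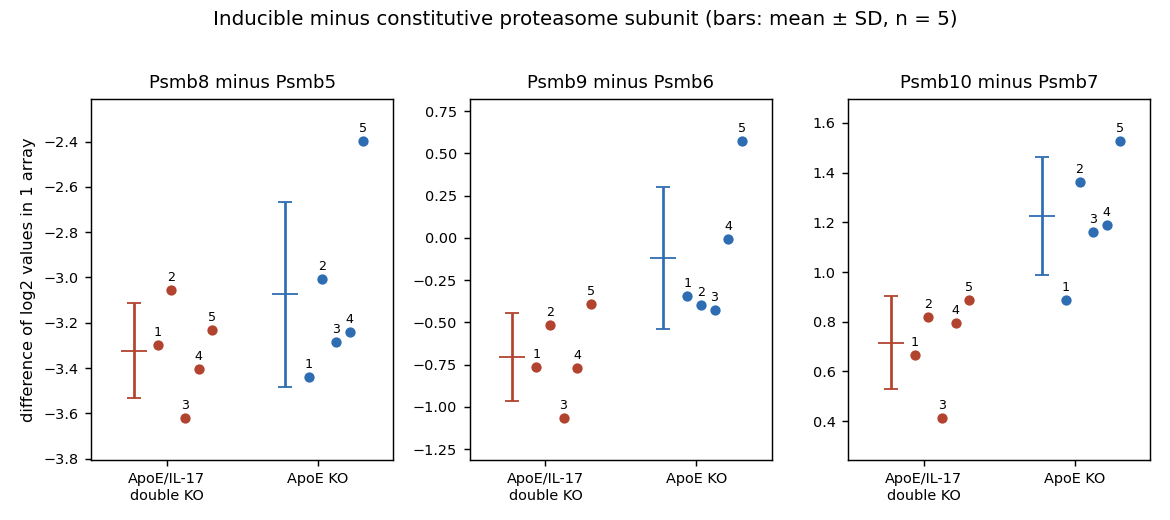
Log2 signal of each immunoproteasome subunit minus that of its standard partner in each aorta, double knockout left and ApoE knockout right, with mean ± SD (n = 5 each). The groups are barely apart for Psmb10 minus Psmb7 and overlap for the other pairs.

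Nlrc5 encodes the transactivator that works at class I promoters as CIITA does at class II promoters. Its log2 signal was 6.82, 7.35, 6.58, 6.64 and 7.21 in the double knockout aortas, against 6.80, 6.72, 6.70, 7.03 and 7.55 in the ApoE knockout aortas. The groups were mixed through their whole range. The difference was -0.04 (95% interval -0.47 to 0.38, limma adjusted p = 0.88), and it turned positive without ApoE knockout replicate 5 (0.11), double knockout replicate 3 (0.04) or double knockout replicate 4 (0.03).

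**Figure D3:**
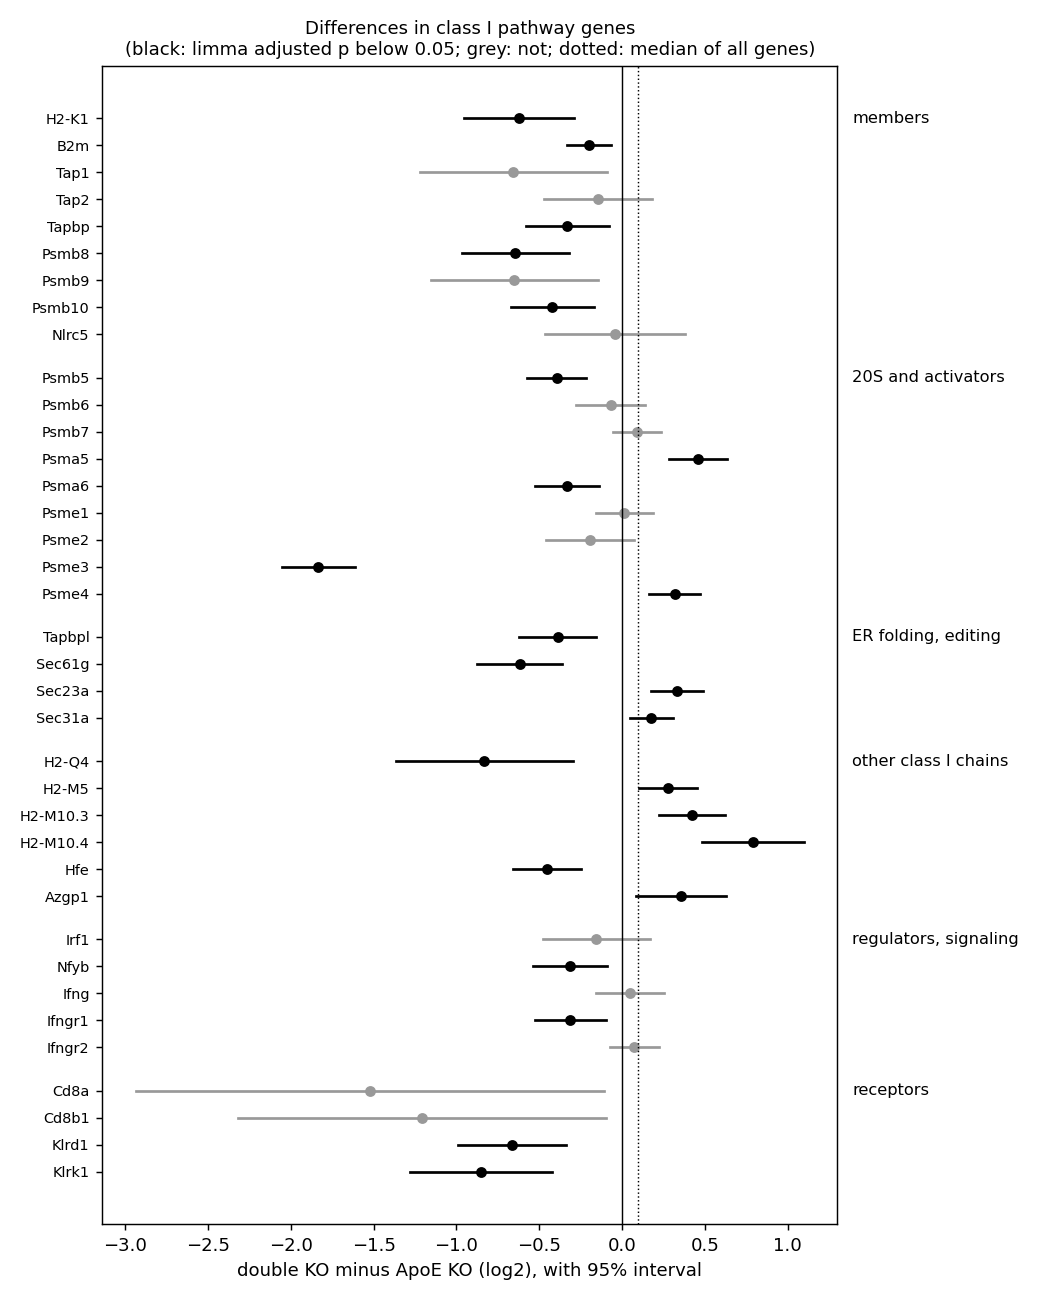
Log2 difference, double knockout minus ApoE knockout, with its 95% interval for the 9 class I genes and for the named genes of the pathway lists, black where the limma adjusted p passed the threshold and grey where it did not. The dotted line is the median of all genes, 0.10, and the class I genes lie to its left.

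The 9 genes shared an order over the arrays that the genotype does not give, a pattern noticed after the values were seen. ApoE knockout replicate 5 was the highest of the 10 aortas in 9 of 9 genes, against 8.83% of all genes and 12.8% of the 13499 brighter genes. Double knockout replicate 3 was the lowest in 7 of 9 genes, against 11.3% of all genes. Within the double knockout group, replicate 2 was highest in 8 of 9, against 21.5% of all genes, and replicate 5 was highest for Psmb10. The 9 genes are not independent of each other, so these counts describe the arrays and carry no test. Averaged over the 9 genes, the log2 signal was 8.93, 9.31, 8.75, 8.91 and 9.20 in the double knockout aortas, against 9.23, 9.34, 9.30, 9.34 and 9.95 in the ApoE knockout aortas. Double knockout replicates 2 and 5 thus lay next to the lower 4 ApoE knockout aortas. Without ApoE knockout replicate 5, the genes called lower were 4: H2-K1 (-0.51, limma adjusted p = 0.019), Psmb8 (-0.54), Psmb9 and Psmb10 (-0.36, adjusted p = 0.037). B2m and Tapbp missed the threshold then.

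**Figure D4:**
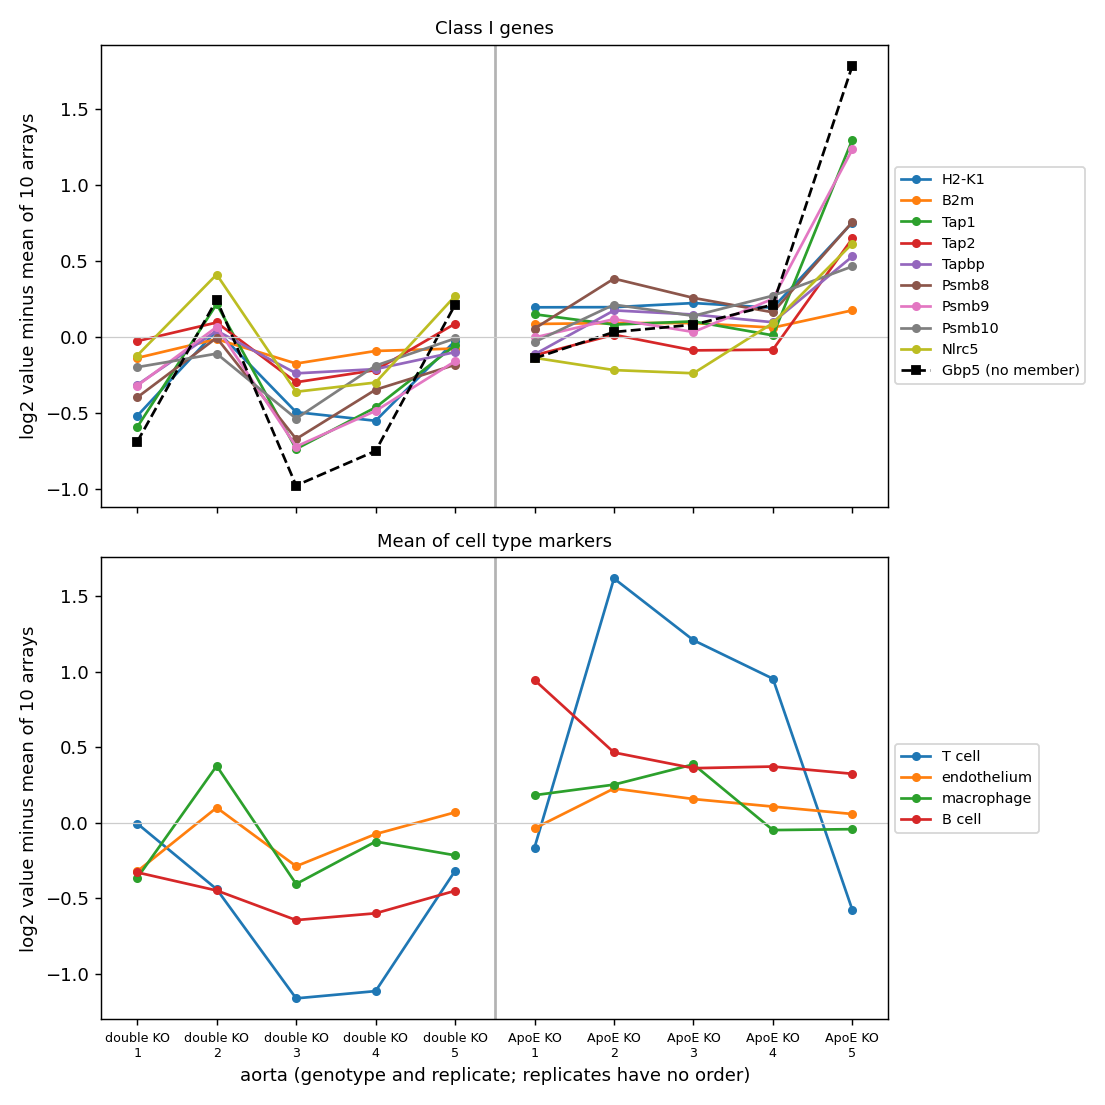
Upper panel: log2 signal of the 9 class I genes and Gbp5 in each aorta, centred on the mean of the 10 arrays; lower panel: mean log2 signal of the T cell, endothelium, macrophage and B cell marker lists. ApoE knockout replicate 5 is at the top of the upper panel, and its T cell marker mean is the lowest of the ApoE knockout group.

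Among 13342 other genes above the receptor gene level, the 5 whose values followed the mean of the 9 genes most closely over the 10 arrays were Gbp5 (Pearson r = 0.981), Lmbrd1 (0.978), Gm5215 (0.976), Gbp7 (0.973) and Lypla2 (0.971). Gbp5 and Gbp7 are guanylate binding proteins, a family known to be induced by interferon gamma. Lmbrd1 takes part in the export of vitamin B12 from lysosomes. Lypla2 removes palmitate from proteins. These were the highest values out of all the genes compared. Without the arrays farthest from the median, ApoE knockout replicate 5 and double knockout replicate 3, r was between 0.915 and 0.968. The log2 differences of the 5 genes ran from -0.79 to -0.09 and none passed the threshold (limma adjusted p between 0.052 and 0.29).

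Cell type markers moved beside these genes, in both directions, and their part in the result was not tested. Of all genes 7.53% were called lower and 22.8% higher, and of the 13499 brighter genes 10.9% were called lower. T cell markers were lower in 5 of 9 and higher in 0, and their mean log2 signal ranged from 6.17 to 7.33 in the double knockout aortas and from 6.76 to 8.95 in the ApoE knockout aortas. ApoE knockout replicate 5, highest for every class I gene, had the 6.76. That array had 6.37 for natural killer and cytotoxic cell markers, where ApoE knockout replicate 3 was highest at 6.46. Its adipocyte marker mean, 8.37, was the lowest of all arrays. Neutrophil markers were lower in 5 of 6, with ranges of 5.73 to 6.23 in the double knockout aortas and 6.56 to 8.11 in the ApoE knockout aortas, and platelet markers in 5 of 5, with 8.32 to 8.75 and 9.60 to 10.02 in the same order. In neither list did the ranges overlap, and Ly6g was below the receptor gene level. B cell markers were lower in 3 of 5, with ranges of 5.86 to 6.17 and 6.83 to 7.45 in the same order, and Blk was below the receptor gene level. Macrophage markers were lower in 1 of 9, with ranges of 9.01 to 9.80 and 9.37 to 9.81, and endothelial markers in 2 of 7, with ranges of 10.01 to 10.43 and 10.29 to 10.56. Natural killer and cytotoxic cell markers were lower in 4 and higher in 2 of 7, with Klrb1c, Gzma and Eomes below that level. Their mean ranged from 5.41 to 5.81 in the double knockout aortas and from 5.68 to 6.46 in the ApoE knockout aortas. Fibroblast markers were higher in 2 of 6 and lower in 0. Their means did not overlap, at 11.73 to 11.99 in the double knockout and 11.62 to 11.69 in the ApoE knockout aortas. Smooth muscle markers were higher in 2 of 7 and lower in 0. Dendritic cell markers were lower in 1 and higher in 1 of 5, and 0 of 6 adipocyte markers were called. Double knockout replicate 2 was the highest of its group for both endothelial (10.43) and macrophage (9.80) markers, and double knockout replicate 3 was the lowest of all for macrophage markers (9.01).

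Other genes of class I presentation came from lists of 118 genes, 101 of them measured. Of these, 11 fell (10.9%, against 7.53% of all genes) and 9 rose (8.91%, against 22.8% of all genes), with a median difference of -0.05. Among the 13499 brighter genes 10.9% were called lower, the same share as in these lists, where 21 genes were dim. With dim genes left out, 2003 of 13499 genes were called higher, 6 of them from these lists. Of the 20 measured nonclassical heavy chains 1 fell and 4 rose, with a median of 0.04. Other settings gave another balance, with 3 lower and 1 higher after quantile normalization, 8 lower and 1 higher after centring, and 4 lower and 3 higher with the replicate number as a block. H2-Q4 fell, with 8.35, 9.29, 8.62, 8.47 and 9.19 in the double knockout aortas, against 9.33, 9.50, 9.23, 9.61 and 10.42 in the ApoE knockout aortas. Double knockout replicate 2 reached the ApoE knockout range. The difference was -0.83 (SE 0.24), 1.78-fold lower, with a limma adjusted p of 0.025, and it missed the threshold without double knockout replicate 1, 3 or 4 (adjusted p between 0.054 and 0.059). As the mean of its probe sets it was -0.50 (adjusted p = 0.032). Of the chains that rose, H2-M10.4 (0.79), H2-M10.3 (0.42) and H2-M10.1 (0.47) were dim, and H2-M5 (0.28, 6.14 and 5.86 in the same order of groups) was near the receptor gene level. The calls of H2-M5, H2-M10.3 and H2-M10.1 were lost both with quantile normalization and with centring, and that of H2-M5 also without double knockout replicate 5 or ApoE knockout replicate 2. By their mean over the 10 arrays, 12 of the 20 lay below that level. Of the chains above it, H2-Q5 (-0.55), H2-T23 (-0.51), H2-T24 (-0.45), H2-M2 (-0.70), H2-Q10 (-0.38) and H2-M3 (-0.26) were below 0 but did not pass. The value of H2-M2 had an SE of 0.42 (limma adjusted p = 0.22). The dim chains H2-M10.2 (0.37), H2-Q1 (0.32), H2-Bl (0.185), H2-M10.5 (0.16), H2-M1 (0.15) and H2-M10.6 (0.15) were above 0 and did not pass. The dim H2-M11 (-0.43), H2-M9 (-0.28) and H2-T10 (-0.06) were below 0 and did not pass either. Outside the H2 region, Hfe, a class I-like protein that sets iron uptake, fell 1.37-fold (8.38 and 8.84, adjusted p = 0.0049), and 1 of the 6 such genes, Azgp1, rose but was dim, and its call was lost under both of those scalings and without any array other than double knockout replicate 4 or ApoE knockout replicate 5.

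Of the proteasome genes, activator Psme3, the nuclear PA28 gamma, moved most. It averaged 7.95 ± 0.17 in the double knockout aortas and 9.78 ± 0.15 in the ApoE knockout aortas (SD, n = 5 each), with no overlap, 3.56-fold lower (limma adjusted p = 2.5e-06). The interferon-induced activator subunits did not pass, with Psme1 at 0.01 (95% interval -0.16 to 0.19) and Psme2 at -0.19 (-0.46 to 0.07). Psme4 rose by 0.32 (adjusted p = 0.0073), a call lost with centring (0.11). Of the 10 measured 20S core subunits outside the catalytic ones, Psma6 fell by 0.33 on the log2 scale (adjusted p = 0.016) and the dim Psma5 rose, a call lost with quantile normalization. Of the 8 cytosolic peptidases measured, limma called 0, and 1 was higher at an unadjusted p under 0.05. With centring 3 were called lower.

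In the endoplasmic reticulum, 2 of 18 genes fell and 2 rose, with a median of 0.07. Tapbpl, which edits peptides like tapasin, had 7.60, 7.89, 7.64, 7.69 and 8.01 in the double knockout aortas, against 8.02, 8.03, 8.11, 8.17 and 8.43 in the ApoE knockout aortas. The groups did not overlap, and it fell 1.31-fold (limma adjusted p = 0.019). Sec61g, a subunit of the translocon, fell 1.54-fold (adjusted p = 0.0033). Sec23a and Sec31a, coat proteins of transport vesicles, were called higher (0.33 and 0.18), though with centring Sec23a was no longer called and Sec31a turned to -0.028, and Sec31a was called in 0 of the 10 runs that left an array out.

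Of the 11 promoter factors measured 1 was called lower, and of the 9 genes of interferon gamma signaling 1, against 5 and 3 with centring. Irf1, an interferon-induced activator of class I genes, differed by -0.16 (95% interval -0.48 to 0.17, limma adjusted p = 0.43), and by -0.012 without ApoE knockout replicate 5. Ifng, interferon gamma itself, was dim, with 5.34 in the double knockout aortas and 5.30 in the ApoE knockout aortas, a difference of 0.05 (-0.16 to 0.25) that turned negative with centring and with quantile normalization. Ifngr1, a chain of its receptor, fell by 0.31 on the log2 scale (adjusted p = 0.032) and Ifngr2, the other chain, differed by 0.07 (-0.08 to 0.22). The call of Ifngr1 was lost without double knockout replicate 1, 3 or 4 or ApoE knockout replicate 2, 3 or 4 (adjusted p between 0.053 and 0.074), and with quantile normalization (0.060). Nfyb, a subunit of the factor that binds CCAAT, fell by 0.32 on the log2 scale (adjusted p = 0.036). It kept that call without double knockout replicate 2 or ApoE knockout replicate 1 or 4 but not without any other array.

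Of the receptors listed as reading class I or class I-like molecules, 8 were measured. By limma 2 fell and 0 rose, with a median of -0.66, and 6 were lower and 0 higher at an unadjusted p under 0.05. With quantile normalization 4 were called lower and with centring 6. Klrd1 and Klrk1, receptors of natural killer cells and T cells, fell by 0.67 and 0.85 on the log2 scale (limma adjusted p = 0.0078 and 0.0088), and the mean of Klrk1 was below the receptor gene level. Klrd1 averaged 5.53 in the double knockout aortas, also below that level, and 6.20 in the ApoE knockout aortas. By their mean over the 10 arrays, 4 of the 8 receptors lay below it, Klra9, Klrc1, Klrk1 and Cd160. Cd8a, the coreceptor of class I-restricted T cells, had 7.75, 6.41, 5.92, 5.51 and 7.03 in the double knockout aortas, against 6.88, 9.49, 8.91, 8.85 and 6.08 in the ApoE knockout aortas. ApoE knockout replicates 2, 3 and 4 were high and replicates 1 and 5 were within the double knockout range. The difference was -1.52 (SE 0.65, adjusted p = 0.094) and Cd8b1, its partner chain, differed by -1.21 (adjusted p = 0.091). With array weights both passed, Cd8a at -1.905 (limma adjusted p = 0.032) and Cd8b1 at -1.49 (0.034). With centring Cd8b1 passed (0.047) and Cd8a did not (0.055). Neither passed with quantile normalization or the replicate block, and each passed in 1 of the 10 runs that left an array out. ApoE knockout replicate 5, the highest aorta for all 9 class I genes, was thus the lowest ApoE knockout aorta for Cd8a.

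Facts on the whole set of arrays frame these values. The level below which a gene is called dim here is the 95th percentile of the mean signal of 1428 olfactory, vomeronasal and taste receptor genes, 5.80, genes not expected in aorta. Smooth muscle markers, with a mean of 11.79 to 11.92 in the double knockout and 11.39 to 11.88 in the ApoE knockout aortas, were high in every sample. Red cell markers were called lower in 4 of 5 and higher in 0, against 7.53% of all genes called lower. Their mean ranged from 5.90 to 6.24 in the double knockout aortas and from 7.55 to 8.40 in the ApoE knockout aortas, without overlap. Il17a, the gene deleted in the double knockout, was dim in both groups (4.48 to 4.94 and 4.20 to 4.54), and no source used here places its probes against the deleted part, so it checks nothing about the labels. Centring each array on its median turned the median difference of all genes to -0.11, and quantile normalization turned it to -0.02. The share of higher genes among the called ones was 75.1%, 22.8% after centring and 44.4% after quantile normalization. With centring 7 of the 9 class I genes were called lower, against 25.4% of all genes, and with quantile normalization 3, against 11.2%.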

How the data were processed

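Per the labels' protocols, RNA from 10 aortas was measured on Mouse Gene 2.0 ST arrays (Affymetrix). The authors deposited log2 values, 1 for each probe set of an array, the base being inferred from the range. Limma is named in the submitters' processing notes with no version or role. No source used here states how background was corrected or how probes were normalized and summarized. Of 41345 probe sets, 23521 carried 1 symbol and gave 22180 genes.

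Genes were tested with lmFit and eBayes in limma 3.58.1 (R 4.3.3), genotype as the only term, two-sided, with Benjamini-Hochberg adjustment over 22180 genes at 0.05. The fit was also run on simulated data, with independent noise in each gene and few genes changed. Such data lack the shared movement of genes and the shift between groups seen here, so that run does not check the calls. The number of arrays limits precision. The limma p-values weigh each group difference against the spread within the groups, with each gene's variance drawn toward that of all genes. They do not cover a separate run of the groups. Subunit pairs used exact permutation tests. Tables and figures used Python 3.11.15, pandas 2.3.3, numpy 2.4.6 and matplotlib 3.10.9.

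Members, lists and motifs were chosen with earlier results of these data known. Named genes were the 10 members, Psmb5, Psmb6, Psmb7, Irf1, Ifng, Ifngr1, Ifngr2, Cd8a, Cd8b1, Psme1 and Psme2, up to 4 called genes per list by smallest p, and the 5 most alike genes. A further gene of this rule is not reported here. Other nonclassical chains, and genes in the paragraph on the whole set, were named after their values were seen. Alternatives covered normalization, dim genes, probe sets, prior, array weights, a replicate block, Welch's test and leaving out each array.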

Additional observations from a re-analysis of the deposited data

Results flagged for a closer look

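In 9 of 90 groups of 5 examined, 1 aorta stood apart from the other 4 by Dixon's criterion. Chance flags about 1 in 20 independent groups, and these groups are not independent, since the genes move together and 5 of them were chosen for following the class I genes. In 8 of the 9 it was ApoE knockout replicate 5. Its log2 signal was 12.02 for H2-K1, 13.68 for B2m, 9.56 for Tap1, 7.84 for Tap2 and 8.97 for Psmb9, while the next highest ApoE knockout aorta had 11.48, 13.59, 8.41, 7.21 and 7.98. It had 8.60 for Irf1, and 9.72 for Gbp5 and 8.75 for Gm5215, which were chosen for following the class I genes, where the next highest ApoE knockout aorta had 7.89, 8.14 and 8.27. ApoE knockout replicate 2 stood apart for the dim Klrk1, with 6.49 against 5.65 in the next. No double knockout aorta stood apart in these groups.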

How the results depend on the processing

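Of the 9 class I genes, 5 were called lower in the fit reported. The count was 3 with quantile normalization, 7 with centring of each array, 6 with array weights and 6 with the replicate block. It was 4 with the mean of probe sets, 4 with Welch's test (0 higher, and 0 of the 8 cytosolic peptidases) and 3 to 7 with an array left out. Of all genes, 8.9% were called lower with array weights, 8.04% with the block, 7.24% with the mean of probe sets and 5.18% with Welch's test. Deviations of same-numbered samples had correlations of -0.13 to 0.26, 3 of 5 best with their own number. Pairs 3 and 4 had -0.13 and 0.06, and the labels state no pairing, so the block was kept as an alternative. These values do not settle whether the numbers mark pairs. The replicate block gave B2m -0.20 (adjusted p = 0.058), Tap1 -0.66 (0.036) and Psmb9 -0.65 (0.031). With quantile normalization B2m was -0.16 (adjusted p = 0.070) and Tapbp -0.30 (0.066). Tapbp was -0.14 as the mean of its probe sets (0.17) and -0.33 by Welch's test (0.094), which also lost the calls of H2-Q4 (0.071), Ifngr1 (0.055) and Nfyb (0.065). With centring Tap1 was -0.86 (0.028) and Psmb9 -0.86 (0.018), and with array weights Psmb9 was -0.61 (0.047). Leaving out 1 array gave ranges of -0.22 to -0.18 for B2m, -0.79 to -0.41 for Tap1, -0.40 to -0.24 for Tapbp, -0.75 to -0.43 for Psmb9, -0.15 to 0.11 for Nlrc5, -0.66 to -0.41 for Psmb9 minus Psmb6 and -0.34 to -0.08 for Psmb8 minus Psmb5. The 5050 higher and 1671 lower calls among all genes became 1982 higher with quantile normalization, 1669 higher and 5641 lower with centring, and 2003 higher with dim genes left out, with 3935 to 5097 higher and 1121 to 1925 lower with an array left out. The other pathway genes, 9 higher and 11 lower, had 5 higher with quantile normalization, 2 higher and 43 lower with centring, and 5 to 8 higher and 8 to 19 lower with an array left out. Ifng turned to -0.20 with quantile normalization, -0.16 with centring and -0.013 without double knockout replicate 2, with 0.088 as the highest value when an array was left out. With centring, Psmb7 was -0.12, Ifngr2 -0.13, Psme1 -0.19 and Sec31a -0.028, and Psme1 ranged from -0.007 to 0.07 with an array left out. The cause was not tested in any of these.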
